A study of Mus musculus with 2 samples.

Results

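The *Ifitm* family in bone marrow cells (BMCs) was described from the 4 genes *Ifitm1*, *Ifitm2*, *Ifitm3* and *Ifitm6*, which were chosen by name and were listed in both libraries of the study. These 4 genes were among 7181 genes listed for the WT, 6735 listed for the Cko and 6001 listed in both. The study compared BMCs of 1 WT and 1 Cko mouse by Sc-RNA-Seq on the 10x Genomics platform, in which each RNA molecule of a cell is counted once by its unique molecular identifier (UMI) near the 3′ end of the transcript. Both mice were of the C57BL6/J strain, 21 days old, and gave marrow from the fore- and hindlimbs after lysis of red blood cells. The WT carried S1P f/f alleles, that is, a floxed exon 2 of *Mbtps1*, which encodes the site-1 protease that activates membrane-bound transcription factors, and the Cko carried the same alleles with the *Osx-Cre* transgene. This transgene expresses a Cre-GFP fusion protein under the promoter of osterix (*Sp7*), a transcription factor of the osteoblast lineage, so that the alleles were to be recombined in cells with an active *Osx* promoter and not by design in each marrow cell.

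The interferon-induced transmembrane (IFITM) proteins are small proteins of the plasma membrane and of endosomes that hinder the fusion of enveloped viruses with the host membrane. IFITM3 acts mainly in late endosomes, whereas IFITM1 is found more at the cell surface, and both are known for their induction by type I and type II interferon. Some members are also made without interferon, in stem and progenitor cells and in germ cells, and in immune cells IFITM proteins occur with the tetraspanins CD9 and CD81.

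In all 56382459 UMIs were counted for the WT and 34447224 for the Cko. After removal of barcodes with fewer than 200 genes, 6271 WT cells with a median of 6977 UMIs and 3662 Cko cells with a median of 7440 UMIs remained. Of their barcodes 28 occurred in both libraries. *Mbtps1* had 31.9 CPM in the WT and 31.2 CPM in the Cko (UMIs per 1000000 UMIs of the same cells), but a 3′ tag lies outside the floxed exon, so this value does not check the genotype. *Sp7* had 38 UMIs in the WT and was not listed in the Cko. The libraries also differed in sex-linked transcripts, since *Xist* was listed only in the Cko (815 CPM) and the Y-linked genes *Ddx3y* (23.5 CPM) and *Eif2s3y* (40.8 CPM) were listed only in the WT. With 1 mouse per genotype, genotype, sex and mouse cannot be told apart, no test was made, and the 95% intervals given below cover counting error only.

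All 4 genes lie within 63088 bases of mouse chromosome 7 (GRCm38). *Ifitm2* (ENSMUSG00000060591.9, minus strand, chr7:140954837-140955987), *Ifitm1* (ENSMUSG00000025491.14, plus strand, chr7:140967221-140969825), *Ifitm3* (ENSMUSG00000025492.6, minus strand, chr7:141009586-141010770) and *Ifitm6* (ENSMUSG00000059108.4, minus strand, chr7:141015699-141017924) are protein-coding genes. The transcripts of *Ifitm2* and *Ifitm3* were 88.5% identical over 270 aligned bases, but in the last 500 bases of the transcript, where 3′ tags arise, *Ifitm3*, *Ifitm1* and *Ifitm6* shared no stretch of 98 bases, the read length, with any other annotated gene. For *Ifitm2* 93 of 403 such stretches (23.1%) were shared with *Gm45717*, an overlapping gene on the same strand, or with *Gm11951* or *Gm8865*, none of which was listed in either library. Its level is therefore less certain than that of the other 3 genes.

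*Ifitm2* and *Ifitm3* differed between the genotypes in opposite directions in some classes but not in others (described below). The windows around their start sites are shown for this reason. Each window holds 250 bases before and 50 bases from the start site (RefSeq, GRCm38.p6), written 5′ to 3′ on the gene's strand, and capitals mark the letters GAAA, any 2 bases and GAAA again, the core of the interferon-stimulated response element (ISRE), a promoter element of many interferon-induced genes.
Ifitm3 (chr7:141010695-141010994, minus strand): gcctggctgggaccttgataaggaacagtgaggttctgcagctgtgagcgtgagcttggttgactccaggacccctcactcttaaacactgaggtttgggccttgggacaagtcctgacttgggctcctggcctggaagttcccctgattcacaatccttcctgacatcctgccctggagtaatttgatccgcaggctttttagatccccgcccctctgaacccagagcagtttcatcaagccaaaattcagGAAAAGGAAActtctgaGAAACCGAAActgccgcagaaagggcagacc
Ifitm2 (chr7:140955912-140956211, minus strand): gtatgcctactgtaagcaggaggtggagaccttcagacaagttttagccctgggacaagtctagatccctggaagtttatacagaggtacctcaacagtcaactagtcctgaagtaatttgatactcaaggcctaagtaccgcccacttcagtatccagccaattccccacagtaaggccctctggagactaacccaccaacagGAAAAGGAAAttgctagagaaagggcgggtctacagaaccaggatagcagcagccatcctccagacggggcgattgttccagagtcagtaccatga
The letters were searched on both strands, and 3.44% of 32851 promoter windows of the same length held them. The *Ifitm3* window held 2 matches, 2 and 19 bases after the start site, and the *Ifitm2* window held 1 match that began 46 bases before it (position -46). The windows of *Ifitm1* (chr7:140967826-140968125) and *Ifitm6* (chr7:141016843-141017142) held none. These windows lie inside the gene spans given above, so the sequence before the outer start of either gene was not searched. The letters AGATAA, to which GATA factors bind, occurred in 11.2% of all windows and in none of these 4.

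Joint clustering of all cells, from which the *Ifitm* genes were left out, gave 20 clusters, and these were named after fixed marker genes. Basophil-like cells (18 WT, 23 Cko) were led by *Prss34*, *Mcpt8* and *Cpa3*. Monocyte-like cells were made up of a cluster led by *Fn1*, *S100a4* and *Ms4a6c* (278 WT, 279 Cko) and a cluster led by *Sirpb1c*, *Wfdc17* and *Apoe* (33 WT, 248 Cko). Immature neutrophil-like cells were made up of a cluster led by *Stfa1*, *Chil3* and *Ngp* (475 WT, 637 Cko) and a cluster led by *Mmp8*, *Retnlg* and *Ly6g* (171 WT, 553 Cko), which had 3 immature and 3 mature neutrophil markers among its 10 leading genes. Granulocyte-monocyte progenitor (GMP)-like cells (357 WT, 263 Cko) were led by *Elane*, *Nkg7* and *Ms4a3*. A cluster led by *Ctla2a*, *Gng11* and *Cd34* (348 WT, 337 Cko) held stem, progenitor and GMP markers and stayed unnamed by the rule. The other classes were early B-like, mature B-like, T/NK-like, macrophage-like, early erythroid-like and hemoglobin-bearing erythroid-like cells, and 3 unnamed clusters were led by *Siglech*, *Cd7* and *H2-Aa*, by *Sepp1*, *Lgmn* and *Id3*, and by *Acp5*, *Hebp1* and *Gstm5*. Few Cko cells were in the early erythroid-like class (699 WT, 91 Cko) and in the *Acp5*, *Hebp1* and *Gstm5* cluster (631 WT, 43 Cko).

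Mature B-like cells went partly against their name, because 45 of 73 WT cells and 34 of 72 Cko cells had at least 1% of their UMIs from neutrophil markers. The same was seen in 97 of 228 WT cells and 17 of 45 Cko cells of the *Sepp1*, *Lgmn* and *Id3* cluster, in which Scrublet also called 60 WT and 10 Cko doublets. Values in these groups are given with and without such cells where the result rests on them. In the *Sepp1*, *Lgmn* and *Id3* cluster hemoglobin RNA exceeded 1% of the UMIs of 81.6% of WT but only 48.9% of Cko cells. The mix of cells grouped there thus differed between the libraries. The part of this difference in the ratios of that cluster was not tested.

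**Figure D1:**
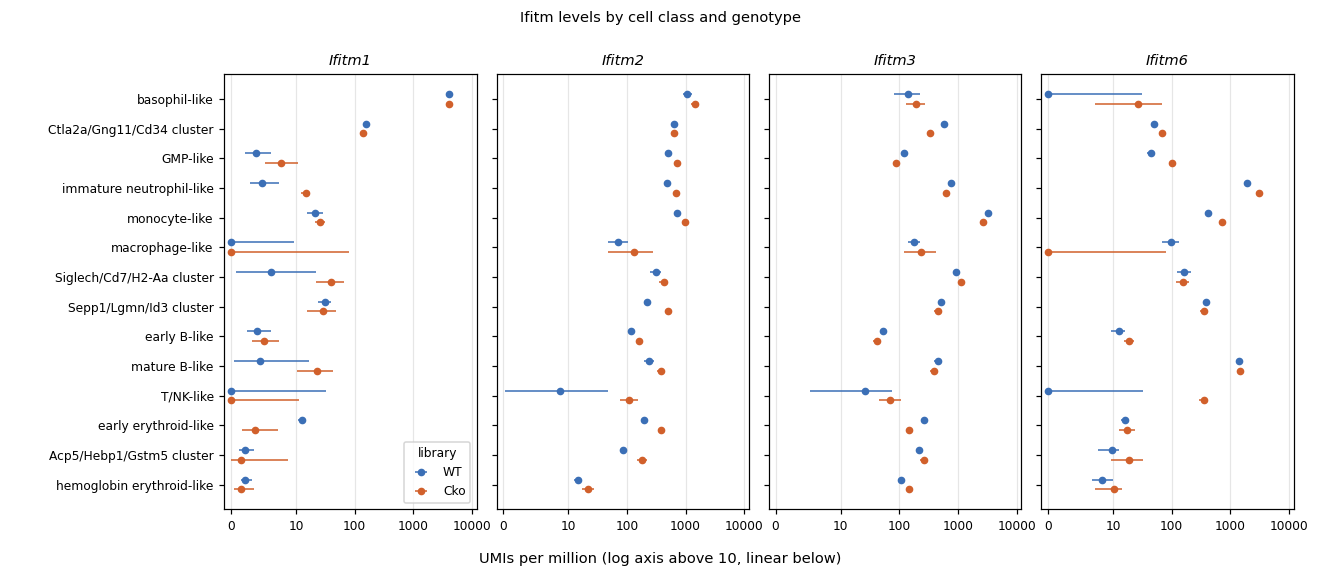
Levels of the 4 *Ifitm* genes (CPM, x axis, logarithmic above 10 and linear below) in 14 cell classes (y axis) of the WT (blue) and the Cko (orange). Points are sums over the cells of a class and bars are exact Poisson 95% intervals. *Ifitm1* stands apart in basophil-like cells, *Ifitm3* in monocyte-like cells and *Ifitm6* in immature neutrophil-like cells, whereas *Ifitm2* is spread over most classes.

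*Ifitm1*, whose protein sits mostly at the cell surface, was a gene of few cells. In basophil-like cells its level was 4076 CPM (3723 to 4453) for the WT and 4118 CPM (3800 to 4454) for the Cko. The median basophil-like cell held 18.5 *Ifitm1* UMIs in the WT and 21 in the Cko, with the highest cell at 92 and 83 UMIs. All cells of this class had an *Ifitm1* UMI in both libraries, so that the levels of the genotypes overlapped within counting error. These 18 WT and 23 Cko cells held 32.1% and 36.6% of all *Ifitm1* UMIs of their library, although they held only 0.214% and 0.439% of all UMIs.

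The cluster led by *Ctla2a*, *Gng11* and *Cd34* came next, with 154 CPM (143 to 167) in the WT and 141 CPM (131 to 152) in the Cko, and held 43.4% and 44.2% of the *Ifitm1* UMIs. Within it the gene was uneven, since the median cell had no *Ifitm1* UMI, the upper quartile was 2 UMIs and the highest cell had 48 in the WT and 61 in the Cko. The 5% of cells with the most *Ifitm1* UMIs held 39.3% of them in the WT and 42.8% in the Cko. After thinning of each cell to 3000 UMIs, 26.1% of WT cells (21.6 to 31.1) and 22.3% of Cko cells (17.9 to 27.1) of this cluster had an *Ifitm1* UMI, against 0.646% and 0.919% of early B-like cells. Before thinning these shares were 48% and 43.6%, with median depths of 12297 and 15120 UMIs per cell, and 1.03% and 3.86% in early B-like cells at median depths of 5541 and 7197 UMIs.

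No other class exceeded 40 CPM of *Ifitm1* in either library. Monocyte-like cells had 21.2 CPM in the WT and 25.7 CPM in the Cko, and GMP-like cells, which share a progenitor stage with them, had 3.79 and 7.66 CPM. In macrophage-like and T/NK-like cells no *Ifitm1* UMI was counted, which allows up to 3 UMIs per class and library.

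The clustering at this resolution gave no stem and progenitor-like class, but 3 of the alternatives did so in both libraries. With at least 26 clusters, 156 WT and 181 Cko cells were stem and progenitor-like. Their *Ifitm1* level was 314 CPM (286 to 343) in the WT and 238 CPM (219 to 258) in the Cko. *Ifitm2* was at 622 and 615 CPM in these cells, whereas *Ifitm3* was at 795 CPM (751 to 841) in the WT and 348 CPM (325 to 373) in the Cko. *Ifitm6* was low, at 17.1 and 53.6 CPM. With 20 principal components (199 WT, 170 Cko cells) *Ifitm1* was at 286 and 287 CPM and *Ifitm3* at 729 and 400 CPM, and with classes from marker scores (102 WT, 87 Cko cells) *Ifitm1* was at 499 and 427 CPM and *Ifitm3* at 647 and 329 CPM. The lower *Ifitm3* level of the Cko was thus present in each of these definitions, while *Ifitm1* was lower in the Cko in the first and the last and equal within counting error with 20 principal components.

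*Ifitm2* was spread over many cell types. It reached 1071 CPM (894 to 1272) in WT and 1443 CPM (1258 to 1648) in Cko basophil-like cells, 716 CPM (679 to 754) and 989 CPM (957 to 1021) in monocyte-like cells, and 625 CPM (601 to 649) and 626 CPM (605 to 648) in the *Ctla2a*, *Gng11* and *Cd34* cluster. GMP-like cells had 492 CPM in the WT and 724 CPM in the Cko and immature neutrophil-like cells 490 and 684 CPM, so that these neighbours in the order did not differ within the WT beyond counting error. Early B-like cells (118 and 157 CPM) lay below all myeloid classes other than macrophage-like cells, and hemoglobin-bearing erythroid-like cells had 14.3 and 21.6 CPM. Between these ends, early erythroid-like cells had 197 CPM in the WT and 379 CPM in the Cko.

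**Figure D2:**
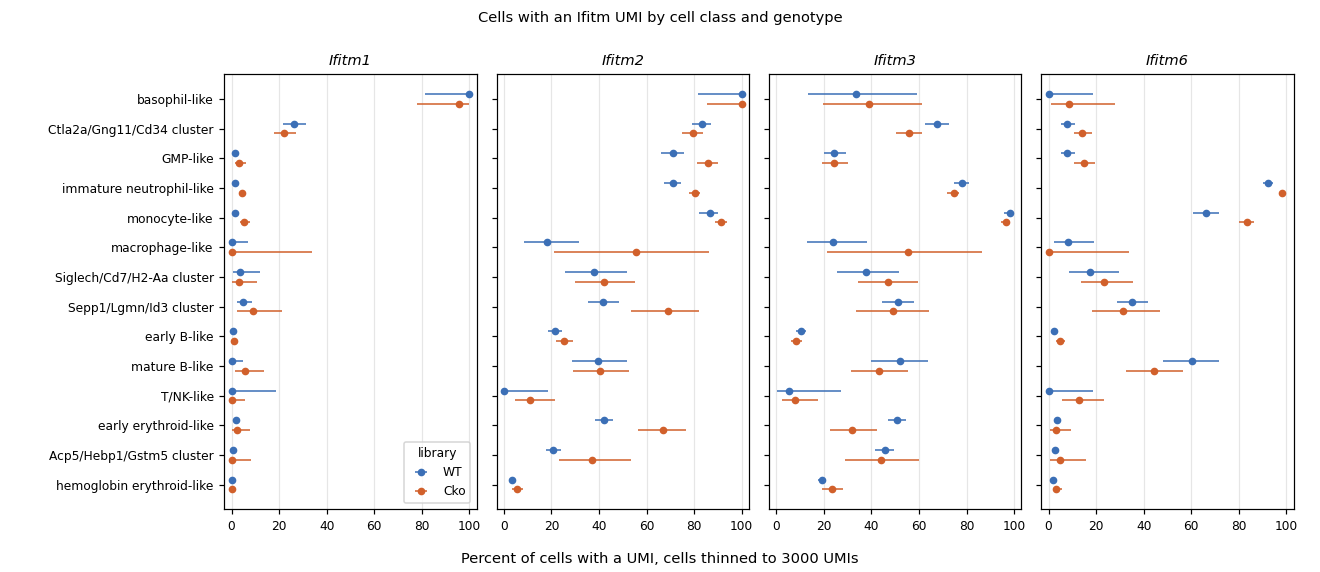
Percent of cells with a UMI of each *Ifitm* gene (x axis) after thinning of each cell to 3000 UMIs, in 14 cell classes (y axis) of the WT (blue) and the Cko (orange), with exact binomial 95% intervals. *Ifitm3* was found in 98.1% of WT and 96.6% of Cko monocyte-like cells and *Ifitm6* in 92.4% and 98.2% of immature neutrophil-like cells, whereas *Ifitm1* was found in 100% and 95.7% of basophil-like cells and in at most 26.1% of the cells of any other class.

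*Ifitm3*, which encodes the endosomal member, was highest in monocyte-like cells, at 3275 CPM (3196 to 3355) in the WT and 2622 CPM (2570 to 2675) in the Cko. The *Sirpb1c*, *Wfdc17* and *Apoe* cluster had 8078 CPM in the WT and 4807 CPM in the Cko, and the *Fn1*, *S100a4* and *Ms4a6c* cluster had 2961 and 1620 CPM. The median cell held 29 and 21 *Ifitm3* UMIs in the former and 18.5 and 12 in the latter. Thus in both genotypes the level was higher in the *Sirpb1c*, *Wfdc17* and *Apoe* cluster, and in both clusters it was lower in the Cko.

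Next in the order was the *Siglech*, *Cd7* and *H2-Aa* cluster, with 926 CPM (824 to 1036) for WT cells and 1131 CPM (1026 to 1243) for Cko cells. Here the signal came from part of the cells, since 43.1% of WT and 53.1% of Cko cells had an *Ifitm3* UMI and the highest cell had 46 and 45. Immature neutrophil-like cells had 767 CPM in the WT and 632 CPM in the Cko, and the *Ctla2a*, *Gng11* and *Cd34* cluster had 582 and 337 CPM. Early erythroid-like cells had 265 and 148 CPM. In basophil-like cells *Ifitm3* was at 141 CPM (82.2 to 226) and 192 CPM (129 to 276), so that the class with the highest *Ifitm1* and *Ifitm2* levels had a low *Ifitm3* level. The lowest levels of well-populated classes were those of early B-like cells, with 52.0 CPM in the WT and 41.3 CPM in the Cko.

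*Ifitm6* was largely a gene of neutrophil-like cells. Immature neutrophil-like cells had 1950 CPM (1908 to 1993) in the WT and 3050 CPM (3013 to 3087) in the Cko, and held 72.1% and 85% of all *Ifitm6* UMIs of their library. The *Mmp8*, *Retnlg* and *Ly6g* cluster had 4930 and 5508 CPM and the *Stfa1*, *Chil3* and *Ngp* cluster 1359 and 1941 CPM. The median cell held 19 and 23 *Ifitm6* UMIs in the former and 8 and 15 in the latter, so that the level was higher in the cluster with mature neutrophil markers in both genotypes. The class therefore holds more of its high cluster in the Cko (553 of 1190 cells) than in the WT (171 of 646 cells).

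Among the other classes, monocyte-like cells had 411 CPM of *Ifitm6* in the WT and 726 CPM in the Cko, with 364 and 447 CPM in the *Fn1*, *S100a4* and *Ms4a6c* cluster and 1134 and 1336 CPM in the *Sirpb1c*, *Wfdc17* and *Apoe* cluster. GMP-like cells had 43.5 and 102 CPM. Basophil-like cells had no *Ifitm6* UMI in the WT and 4 in the Cko. Early B-like cells (12.5 and 18.9 CPM; 2.33% and 4.78% of thinned cells) were close to hemoglobin-bearing erythroid-like cells (8.35 and 10.3 CPM; 1.8% and 3.32% of thinned cells), and these low levels were read as background.

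Mature B-like cells had 1382 CPM of *Ifitm6* in the WT and 1489 CPM in the Cko. All 609 WT UMIs and 588 of 596 Cko UMIs were in the cells with at least 1% of UMIs from neutrophil markers. The 28 WT cells without such RNA had no *Ifitm6* UMI and the 38 Cko cells had 8, or 46.5 CPM. The same held for 107 of 114 UMIs in Cko T/NK-like cells, which came from 8 of 63 cells, and for 803 of 818 WT UMIs and 163 of 175 Cko UMIs in the *Sepp1*, *Lgmn* and *Id3* cluster. The *Ifitm6* levels of these 3 groups thus sat in cells that also held neutrophil RNA.

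The members occurred together in the same cells to a different extent in each class. After thinning, at least 2 of the 4 genes were found in 92.9% of WT and 96.6% of Cko monocyte-like cells, in 89.2% and 93.4% of immature neutrophil-like cells, and in 100% and 95.7% of basophil-like cells. In the *Ctla2a*, *Gng11* and *Cd34* cluster the shares were 67.5% (62.3 to 72.4) and 57.0% (51.5 to 62.3), in GMP-like cells 23.8% and 31.9%, and in early B-like cells 5.56% and 5.88%. The combinations differed as well. Monocyte-like and neutrophil-like cells mostly held 3 members (57.2% of WT and 73.6% of Cko monocyte-like cells), namely *Ifitm2*, *Ifitm3* and *Ifitm6*, while basophil-like cells held *Ifitm1* with *Ifitm2*. Of the cells with *Ifitm1* in the *Ctla2a*, *Gng11* and *Cd34* cluster, 89.0% of the WT cells and 82.7% of the Cko cells also had *Ifitm2*. Over all cells of a library the share with at least 2 members was 27.0% for WT (25.9 to 28.1) and 56.9% for Cko (55.3 to 58.5).

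The genes whose levels followed each member most closely were found by the Pearson correlation of log2(CPM + 10) over 25 pairs of class and library with at least 20 cells, across 5870 genes. The points share their libraries, and the correlations are a description. Basophil-like cells entered only from the Cko, since the WT had 18 of them, and *Cpa3* and *Gata2* were among the markers that named this class. For *Ifitm1* the closest genes were *Cpa3* (r = 0.93), a protease of basophils and mast cells, *Cuedc1* (0.91), *Gata2* (0.91), a transcription factor of stem cells, basophils and mast cells, *Ecm1* (0.91) and *Angpt1* (0.88). For *Ifitm6* they were *Cd300lf* (0.95), *Itgam* (0.94), which encodes CD11b, *Fpr2* (0.94), a receptor for formyl peptides, *Cib2* (0.94) and *Cybb* (0.94), a subunit of the phagocyte oxidase. *Ifitm3* was most like *Serpinb10* (0.88), *Rap2a* (0.85), *Dnajb14* (0.85), *Anxa7* (0.85) and *Lgals3* (0.84), and *Ifitm2* was most like *Sptlc2* (0.91), *Aldoa* (0.91), *Rbfa* (0.91), *Rsu1* (0.90) and *Rabac1* (0.90). Between members the correlations were lower, from -0.02 for *Ifitm1* with *Ifitm6* to 0.59 for *Ifitm1* with *Ifitm2* and for *Ifitm3* with *Ifitm6*.

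Over all cells, each member was higher in the Cko library. *Ifitm6* had 202 CPM in the WT and 880 CPM in the Cko (4.35-fold), *Ifitm2* 232 and 530 CPM (2.29-fold), *Ifitm1* 27.2 and 49.3 CPM (1.82-fold), and *Ifitm3* 373 and 557 CPM (1.49-fold). These values mix the cell makeup with the level in each kind of cell. WT cluster levels weighted by the Cko shares of UMIs gave 3.51-fold for *Ifitm6*, 1.87-fold for *Ifitm2*, 1.76-fold for *Ifitm1* and 2.32-fold for *Ifitm3* relative to the WT. The rest, at the cell makeup of the Cko, was 1.24-fold for *Ifitm6*, 1.23-fold for *Ifitm2*, 1.03-fold for *Ifitm1* and 0.64-fold for *Ifitm3*. *Ifitm3* was therefore higher in the Cko library as a whole and lower in the Cko at an equal cell makeup.

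The Cko was then compared with the WT within each class, for genes with at least 100 UMIs over both libraries and classes with at least 20 cells in each library, and a ratio of 1.5-fold or more was counted as higher or lower. *Ifitm3* was lower in early erythroid-like cells, with 265 CPM in the WT and 148 CPM in the Cko (ratio 0.56, 0.50 to 0.62), where 7.48% of all genes compared were lower by this rule. This call depended on the clustering, since the log2 ratio of -0.84 became -0.05 with each library clustered on its own, -0.25 with at least 14 clusters, -0.33 with 20 principal components and -0.35 with classes from marker scores. It was also lower in the *Ctla2a*, *Gng11* and *Cd34* cluster (ratio 0.58, 0.54 to 0.62), where 7.56% of genes were lower. In early B-like cells (0.79), GMP-like cells (0.75), immature neutrophil-like cells (0.82) and monocyte-like cells (0.80) the ratio of *Ifitm3* was below 1 and stayed within 1.5-fold. The early B-like clusters moved in opposite directions. In the cluster led by *Vpreb1*, *Igll1* and *Dntt*, genes of early B cell stages, the ratio was 0.61 (0.49 to 0.76; 4.4% of genes lower), whereas in the cluster led by *Myl4*, *Fcrla* and *Pafah1b3* it was 1.54 (1.04 to 2.30; 2.52% of genes higher), with 48 and 61 UMIs.

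Since monocyte-like and neutrophil-like cells are each made up of clusters with unlike *Ifitm3* levels, and the high cluster was more abundant in the Cko, the clusters were also compared one by one. The ratio of *Ifitm3* was 0.55 (0.53 to 0.57) in the *Fn1*, *S100a4* and *Ms4a6c* cluster, where 4.89% of genes were lower, and 0.60 (0.56 to 0.64) in the *Sirpb1c*, *Wfdc17* and *Apoe* cluster, where 9.43% were lower. In the *Stfa1*, *Chil3* and *Ngp* cluster it was 0.66 (0.62 to 0.69), where 2.05% of genes were lower, and in the *Mmp8*, *Retnlg* and *Ly6g* cluster it was 0.84 (0.77 to 0.90). Within each of these 4 clusters the Cko level was thus below the WT level, and in 3 of them by more than 1.5-fold. *Ifitm3* was not lower in each cell type, since the ratio was 1.22 (1.05 to 1.42) in the *Siglech*, *Cd7* and *H2-Aa* cluster, 1.23 in the *Acp5*, *Hebp1* and *Gstm5* cluster, 1.40 in hemoglobin-bearing erythroid-like cells and, as given above, 1.54 in an early B-like cluster. Within the hemoglobin-bearing class it was 1.19 in the *Mgst3*, *Hemgn* and *Fn3k* cluster, 1.52 in the *Gch1*, *Hist3h2ba* and *Hbb-bs* cluster and 0.97 in the *Tmcc2*, *Xpo7* and *Rsad2* cluster.

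**Figure D3:**
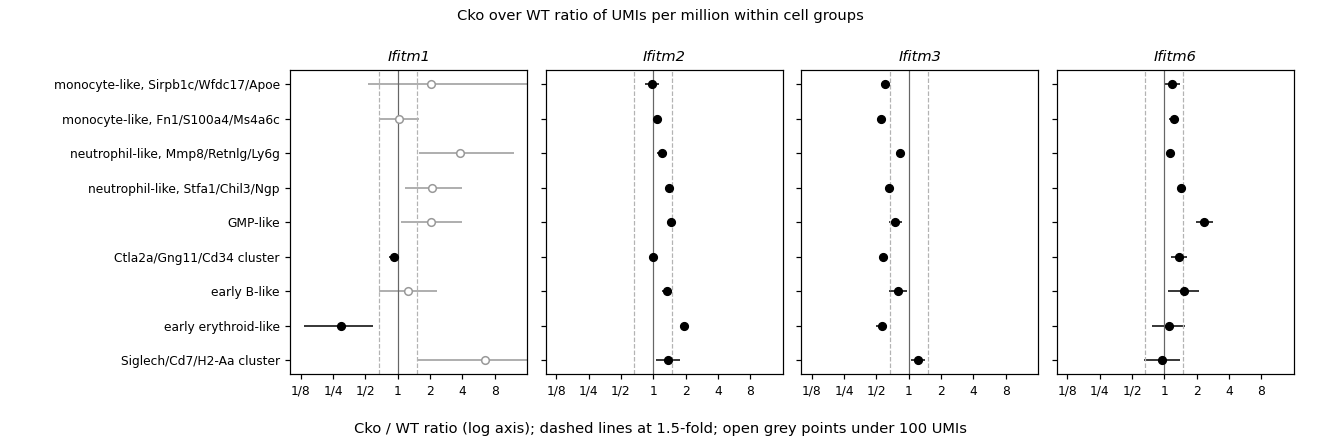
Cko over WT ratio of CPM (x axis, logarithmic) of the 4 *Ifitm* genes in 9 cell classes or clusters (y axis), with exact conditional 95% intervals. Dashed lines stand at 1.5-fold and open grey points have fewer than 100 UMIs. *Ifitm3* lies left of 1 in all groups shown but the *Siglech*, *Cd7* and *H2-Aa* cluster, and *Ifitm2* lies at or right of 1 in all of them but the *Sirpb1c*, *Wfdc17* and *Apoe* cluster (0.96).

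*Ifitm2* was higher in the Cko in early erythroid-like cells, with 197 and 379 CPM (ratio 1.93, 1.78 to 2.08), where 6.04% of genes were higher. It was also higher in the *Acp5*, *Hebp1* and *Gstm5* cluster, with 85.9 and 182 CPM (ratio 2.12, 1.72 to 2.58; 6.67% of genes higher), and in the *Sepp1*, *Lgmn* and *Id3* cluster, with 219 and 509 CPM (ratio 2.33, 1.99 to 2.72; 13.6% of genes higher). In the cells of the latter without neutrophil RNA it had 217 and 561 CPM. Cells with more than 1% hemoglobin UMIs made up 81.6% of the WT cells there but 48.9% of the Cko cells. This *Ifitm2* ratio is therefore not shown to be a difference within 1 cell type. The ratios in mature B-like cells (1.59; 11.9% of genes higher) and in hemoglobin-bearing erythroid-like cells (1.51; 11.3% of genes higher) were just past the limit. In mature B-like cells 102 of 105 WT and 144 of 152 Cko *Ifitm2* UMIs were in the cells with neutrophil RNA, and the other cells held 3 and 8 UMIs (22.7 and 46.5 CPM). Over the alternatives the log2 ratio of this class ranged from 0.58 to 3.57, and that of hemoglobin-bearing erythroid-like cells from 0.13 to 1.84. Within the latter class *Ifitm2* stayed within 1.5-fold in the *Mgst3*, *Hemgn* and *Fn3k* cluster (1.29, 0.89 to 1.85), and the other clusters had fewer than 100 *Ifitm2* UMIs. GMP-like cells had a ratio of 1.47 (1.39 to 1.56), immature neutrophil-like cells 1.40, monocyte-like cells 1.38 and early B-like cells 1.33, which were within 1.5-fold. In monocyte-like cells this did not hold within the clusters, where the ratios were 1.07 (0.997 to 1.16) and 0.96 (0.83 to 1.12), and in the *Ctla2a*, *Gng11* and *Cd34* cluster the ratio was 1.002 (0.95 to 1.05).

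*Ifitm6* was higher in the Cko in GMP-like cells (ratio 2.35, 1.97 to 2.81), where 2.9% of genes were higher. In these cells neutrophil-marker RNA was at 95533 CPM in the WT and 78504 CPM in the Cko. Its part in this ratio was not tested. In immature neutrophil-like cells the ratio was 1.56 (4.11% of genes higher), but within the clusters it was 1.43 (1.38 to 1.48) and 1.12 (1.08 to 1.16). In monocyte-like cells it was 1.76 (5.65% of genes higher), but 1.23 (1.11 to 1.35) and 1.18 (0.99 to 1.41) within the clusters. Neutrophil-marker RNA was also higher in Cko monocyte-like cells (13527 and 17868 CPM), where 25.1% of WT and 37.8% of Cko cells had at least 1% of such UMIs, and its part in this ratio was not tested. The ratio of 1.51 in early B-like cells (2.01% of genes higher) rests on background levels, with 68 and 94 UMIs, and its log2 value of 0.59 turned to -0.25 with classes from marker scores.

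*Ifitm1* passed the limit of 100 UMIs in 4 of these classes. It was higher in the Cko in immature neutrophil-like cells (ratio 3.10, with 4.11% of genes higher), where 20 WT and 124 Cko UMIs were counted (4.74 and 14.7 CPM). The WT level was near that of WT early B-like cells (4.06 CPM), and 5% of the Cko cells held 87.1% of the Cko UMIs. Both neutrophil-like clusters had fewer than 100 UMIs, with ratios of 2.10 (1.16 to 4.01) and 3.83 (1.57 to 12.2). *Ifitm1* was lower in early erythroid-like cells (ratio 0.30, 0.13 to 0.58, with 7.48% of genes lower), with 162 and 9 UMIs, but 1 WT cell alone held 72 of these UMIs, and the direction reversed in 3 other clusterings (log2 ratios of 2.40, 2.05 and 0.73 in place of -1.74). The *Ctla2a*, *Gng11* and *Cd34* cluster had a ratio of 0.91 (0.82 to 1.02) and monocyte-like cells had 1.21, with 42 and 94 UMIs. Basophil-like cells had too few cells in the WT for the comparison, and their levels are given above.

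**Figure D4:**
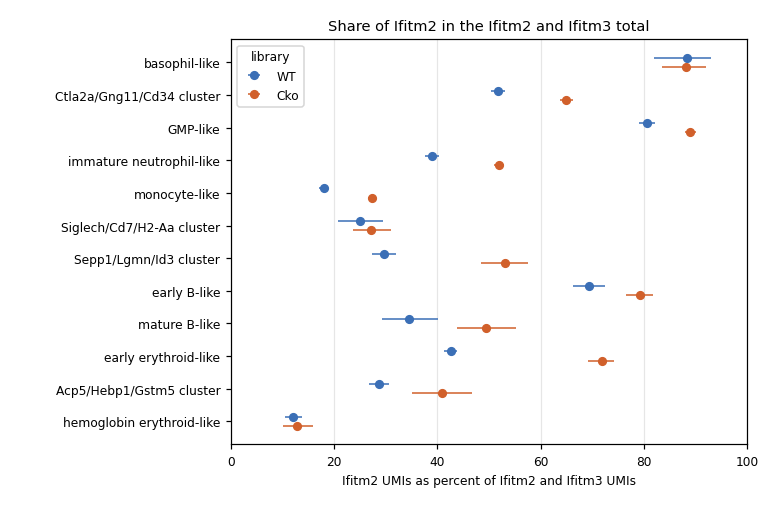
*Ifitm2* UMIs as percent of the *Ifitm2* and *Ifitm3* UMIs (x axis) in 12 cell classes (y axis) of the WT (blue) and the Cko (orange), with exact binomial 95% intervals. The Cko point lies to the right of the WT point in all classes but basophil-like cells, where both stand at 88%. The intervals overlap in the *Siglech*, *Cd7* and *H2-Aa* cluster and in hemoglobin-bearing erythroid-like cells. In mature B-like cells most UMIs of both genes were in cells with neutrophil RNA. The other cells of this class held 3 *Ifitm2* and 5 *Ifitm3* UMIs in the WT and 8 and 20 in the Cko.

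The balance of *Ifitm2* and *Ifitm3* does not depend on the total used for scaling. *Ifitm2* made up 17.9% of their UMIs in WT and 27.4% in Cko monocyte-like cells, 39.0% and 52.0% in immature neutrophil-like cells, and 42.6% and 71.9% in early erythroid-like cells. It made up 51.8% (50.4 to 53.2) and 65.03% (63.7 to 66.3) in the *Ctla2a*, *Gng11* and *Cd34* cluster. In basophil-like cells the shares were 88.4% and 88.3%, so that the class with the highest *Ifitm2* level had the same balance in both genotypes, with intervals from 82.0% to 93.1% in the WT and from 83.6% to 91.99% in the Cko.

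Because *Ifitm3* is known as an interferon-induced gene, its ratios were set beside those of other interferon-induced genes. Of 47 genes listed as interferon-induced antiviral effectors 31 were listed in both libraries. In early erythroid-like cells 12 of the 21 with enough UMIs were lower in the Cko and none was higher, with a median log2 ratio of -0.82, against -0.09 over all genes compared. Of all genes compared in these cells 7.48% were lower and 6.04% higher. Effector counts of this class are not given for the other clusterings, on which its *Ifitm3* call depended. The lowest effector in this class was *Rsad2* (9.0 CPM in the WT and 0.8 CPM in the Cko), an enzyme that makes an antiviral nucleotide, with 116 and 2 UMIs. This gene was far higher in hemoglobin-bearing erythroid-like cells (426 CPM in the WT), and hemoglobin RNA was also lower in Cko early erythroid-like cells (12887 and 6351 CPM, with 25.04% and 13.19% of cells above 1% of UMIs), a difference whose part in these ratios was not tested. In GMP-like cells 7 of 13 were lower (median -0.65, against -0.01; 3.16% of genes lower), led by *Igtp*, an interferon-inducible GTPase (32.2 and 6.1 CPM). In early B-like cells 11 of 17 were lower (median -0.67, against -0.11; 3.1% of genes lower), led by *Isg15*, a ubiquitin-like protein (14.8 and 4.0 CPM). In the *Ctla2a*, *Gng11* and *Cd34* cluster 7 of 20 were lower (median -0.51, against -0.10, with 7.56% of genes lower). None was higher in any of these 4 groups, where 6.04%, 2.9%, 2.01% and 2.24% of all genes compared were higher, in the order given. Within early B-like cells the effector median was -0.80 (against -0.105) in the *Vpreb1*, *Igll1* and *Dntt* cluster, where *Ifitm3* had a ratio of 0.61. In the *Myl4*, *Fcrla* and *Pafah1b3* cluster it was -0.37 (against -0.108), whereas *Ifitm3* was higher there (ratio 1.54).

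In monocyte-like cells 14 of 23 antiviral effectors were lower (8.38% of genes lower). This number was 9 when ratios were centred on the median of all genes, and 7 with at least 300 UMIs or with a limit of 2-fold. Within the clusters the numbers were 15 of 19 in the *Fn1*, *S100a4* and *Ms4a6c* cluster (4.89% of genes lower) and 10 of 12 in the *Sirpb1c*, *Wfdc17* and *Apoe* cluster (9.43% of genes lower). The lowest pathway gene in the former was *Gbp2*, an interferon-inducible guanylate-binding protein, with 45.1 CPM in the WT and 6.8 CPM in the Cko (ratio 0.15, 0.08 to 0.26). The lowest in the latter was *Rtp4*, with 345 and 86.0 CPM (ratio 0.25, 0.17 to 0.37). *Ifitm3* (log2 ratio -0.87 and -0.75) lay close to the medians of these genes, which were -0.81 and -0.87.

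The counts and medians of the effectors varied over the other classes. In mature B-like cells 1 of 8 was lower (8.44% of genes lower, median 0.19) and in the *Siglech*, *Cd7* and *H2-Aa* cluster 1 of 7 (15.6% of genes lower, median -0.02). In the *Acp5*, *Hebp1* and *Gstm5* cluster 3 of 15 were lower and 2 higher (9.36% of genes lower and 6.67% higher, median -0.11). In the *Sepp1*, *Lgmn* and *Id3* cluster 4 of 12 were lower and 1 higher (14.8% of genes lower and 13.6% higher, median -0.35). In hemoglobin-bearing erythroid-like cells 5 of 18 were lower and 1 higher (7.71% of genes lower and 11.3% higher, median -0.45). In immature neutrophil-like cells 0 of 17 antiviral effectors were lower (4.02% of genes lower) and 4 were higher (4.11% of genes higher), with a median of 0.03, against -0.04 over all genes. Among the higher ones was *Rtp4*, with 11.6 CPM in the WT and 35.9 CPM in the Cko (ratio 3.09). Within the *Stfa1*, *Chil3* and *Ngp* cluster 2 of 10 were higher (3.45% of genes higher) and within the *Mmp8*, *Retnlg* and *Ly6g* cluster 2 of 8 were higher (8.34% of genes higher), and none was lower in either (2.05% and 3.18% of genes lower). In the *Stfa1*, *Chil3* and *Ngp* cluster *Ifitm3* (log2 ratio -0.61) was thus lower without these genes, whose median was -0.07.

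The 11 listed genes of antigen presentation, all found in both libraries, were split. In monocyte-like cells 2 were higher (5.65% of all genes compared) and 5 lower (8.38%, median log2 ratio -0.57). In the *Fn1*, *S100a4* and *Ms4a6c* cluster 2 of 10 were higher (3.22% of genes) and 5 lower (4.89%, median -0.61). In the *Sirpb1c*, *Wfdc17* and *Apoe* cluster 0 of 10 were higher (12.5% of genes) and 6 lower (9.43%, median -0.94). The lower genes of both clusters included the immunoproteasome subunit *Psmb10*, the proteasome activator *Psme2* and *Tapbp*, which encodes tapasin. In early erythroid-like cells 3 were higher (6.04% of all genes compared) and 3 lower (7.48%, median -0.36). In GMP-like cells 3 were higher (2.9%) and 2 lower (3.16%). In immature neutrophil-like cells 3 were higher (4.11%) and 1 lower (4.02%, median 0.40). In the *Ctla2a*, *Gng11* and *Cd34* cluster 3 were higher (2.24%) and 0 lower (7.56%, median -0.15). The 3 higher genes of each of these 4 groups were *H2-K1*, *H2-D1* and *B2m*. *H2-K1*, which encodes a class I histocompatibility chain, was higher in the Cko in immature neutrophil-like cells (67.1 and 229 CPM, ratio 3.40) and in early erythroid-like cells (187 and 368 CPM, ratio 1.97), and *H2-D1* had ratios of 2.38 and 1.92 there. In monocyte-like cells the ratios were 2.08 and 1.82, but *H2-K1* had 1.83 and *H2-D1* 1.61 in the *Fn1*, *S100a4* and *Ms4a6c* cluster and 1.005 and 1.10 in the *Sirpb1c*, *Wfdc17* and *Apoe* cluster. *H2-K1* and *H2-D1* are related in sequence, and how their reads were assigned is not known, so their separate values are uncertain. *B2m*, the common light chain, had a ratio of 1.64 in early erythroid-like cells, 1.56 in the *Ctla2a*, *Gng11* and *Cd34* cluster and 2.17 in GMP-like cells, but 0.76 (0.70 to 0.83) in the *Sirpb1c*, *Wfdc17* and *Apoe* cluster.

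Of 8 listed membrane partners of IFITM proteins 6 had enough UMIs in the *Ctla2a*, *Gng11* and *Cd34* cluster, where 2 were lower (7.56% of genes lower). These were *Cd9*, which encodes a tetraspanin, with 326 CPM in the WT and 136 CPM in the Cko (ratio 0.42, 0.38 to 0.46), and *Zmpste24*, a membrane protease, with 24.9 and 15.99 CPM (ratio 0.64). In the *Sepp1*, *Lgmn* and *Id3* cluster *Cd9* (ratio 2.06), *Cd63* (1.70) and *Cd81* (1.56) were higher among 5 partners compared (13.6% of genes higher). This cluster held called doublets and cells with neutrophil RNA, and partner ratios without these cells are not given. Its share of cells with hemoglobin RNA also differed between the libraries, as given above. The part of that difference in the partner ratios was not tested. In GMP-like cells *Cd82* was lower among 6 (ratio 0.66, with 3.16% of genes lower). In the other groups compared no partner passed the limit.

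**Figure D5:**
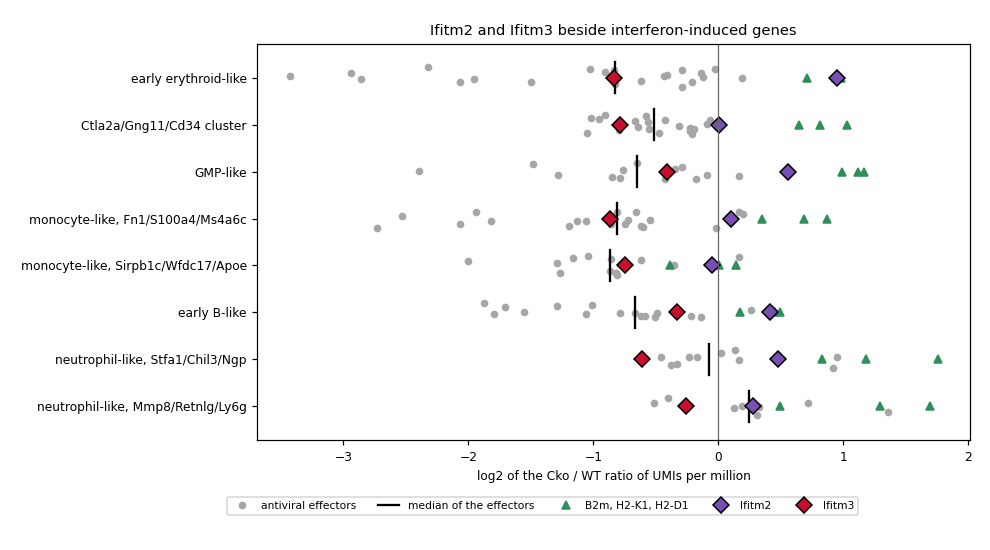
Log2 of the Cko over WT ratio (x axis) of *Ifitm2* (purple), *Ifitm3* (red), interferon-induced antiviral effectors (grey, 1 point per gene, black line at their median) and *B2m*, *H2-K1* and *H2-D1* (green) in 8 cell classes or clusters (y axis). *Ifitm3* lies below 0 in the 8 groups shown. The median of the antiviral effectors lies between -0.87 and -0.51 in the first 6 and at -0.07 and 0.25 in the neutrophil-like clusters. Not shown are hemoglobin-bearing erythroid-like cells (*Ifitm3* 0.48) and the clusters led by *Acp5*, *Hebp1* and *Gstm5* (0.30) and by *Siglech*, *Cd7* and *H2-Aa* (0.29). Mature B-like cells (-0.22) and the *Sepp1*, *Lgmn* and *Id3* cluster (-0.21) are also not shown. Without the cells with neutrophil RNA, *Ifitm3* was at 37.8 CPM in WT and 116 CPM in Cko mature B-like cells (5 and 20 UMIs). In the *Sepp1*, *Lgmn* and *Id3* cluster it was then at 633 and 692 CPM, so that the Cko level was the higher in both groups. Early B-like cells are shown as a whole. Their *Vpreb1*, *Igll1* and *Dntt* cluster had -0.71 and their *Myl4*, *Fcrla* and *Pafah1b3* cluster 0.62.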

How the data were processed

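Sc-RNA-Seq of BMCs from 1 WT and 1 Cko mouse was analysed. The authors made libraries with the Chromium Single Cell 3′ v2 kit, and the submitters' processing notes name Cell Ranger (version not given in the sources used here) and GRCm38. The authors deposited whole-number UMI counts per gene and barcode without normalization, and since no gene was listed whose highest cell had fewer than 4 UMIs, unlisted genes were not taken as 0. A row of totals and a column of sums were dropped.

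Barcodes with at least 200 genes were kept. Scrublet in scanpy 1.11.5 (expected rate 5%) called 122 WT and 38 Cko doublets, which were kept. Both libraries were clustered together on the 6001 shared genes without the *Ifitm* genes (Seurat 5.3.0, R 4.3.3, 2000 variable genes, 30 principal components, 20 neighbours, resolution 0.6). Each cluster took the name of the type best represented in its 25 leading genes (at least 3 markers, each in at least 25% of its cells at 1.5-fold or more), unless another type had more among the first 10. Names were rebuilt and can differ from those of the study.

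Levels are UMIs summed per class in CPM, with exact Poisson intervals. Ratios are Cko over WT with exact conditional binomial intervals, and shares have exact binomial (Clopper-Pearson) intervals. Cells were thinned to 3000 UMIs for shares (4 shallower WT cells were left out). Cells are not replicates, so no test was made. The ratio step was tested on simulated data.

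The members, markers and pathway lists were chosen with earlier results of these data known. Named genes were the members, other listed *Ifitm* genes, leading and marker genes, the 5 genes most like each member and pathway genes, mainly those with the highest or lowest ratio in a class. Alternatives changed the clustering, naming, doublets, filters, scaling, thresholds and thinning. One pathway gene and a promoter motif linked to it are not reported here. The protein sequences were not used here. Gene positions are from GENCODE and promoter windows from RefSeq. Calculations were made in Python 3.11.15 with scipy 1.17.1, numpy 2.4.6 and pandas 2.3.3, and plots with matplotlib 3.10.9.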

Additional observations from a re-analysis of the deposited data

Results flagged for a closer look

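Other *Ifitm* genes were listed in only 1 library each and entered no comparison. *Ifitm5*, known from osteoblasts, had 43 UMIs in 14 cells of the WT, above the 3 UMIs that a count of 0 allows, and was not listed in the Cko. Of these 14 cells 7 also had UMIs of *Col1a1* and *Bglap*, osteoblast genes, as did 3 of the other 6257 WT cells. With at least 26 clusters 29 of the 43 UMIs were in 6 of the 36 WT cells that were stromal and osteolineage-like. *Ifitm7* had 66 UMIs in 52 cells of the Cko and was not listed in the WT. Of these UMIs 29 were in GMP-like cells (22 of 263 cells) and 35 in the *Ctla2a*, *Gng11* and *Cd34* cluster (28 of 337 cells).

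*Ifitm1* differed in opposite directions between classes, with a log2 ratio of 1.63 in immature neutrophil-like cells and -1.74 in early erythroid-like cells. The latter value rests on 162 WT UMIs, of which 1 cell held 72, and 9 Cko UMIs, and it turned to 2.40, 2.05 and 0.73 in 3 other clusterings, the direction of the neutrophil-like value. The neutrophil-like value rests on 20 WT and 124 Cko UMIs, with fewer than 100 UMIs in either neutrophil-like cluster. With 1 library per genotype the difference between the classes was not tested.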

How the results depend on the processing

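In the 7 named classes compared, 2.01% to 11.9% of all genes compared were higher in the Cko and 3.1% to 8.44% lower. Of 24 pairs of *Ifitm* gene and class, 8 were higher and 2 lower. The number higher was 4 with at least 300 UMIs, 2 with a limit of 2-fold, and 4 when the ratios of the clusters of a class were combined by the Mantel-Haenszel method, an alternative chosen after seeing the data that gave 3 lower. The number lower was 0 with each library clustered on its own, with at least 14 clusters and with 20 principal components, and 1 with at least 26 clusters, with classes from marker scores, with at least 300 UMIs and with a limit of 2-fold. The *Ifitm1* log2 ratio in early erythroid-like cells turned from -1.74 to 2.40 with separate clustering, 2.05 with at least 14 clusters and 0.73 with 20 principal components. The *Ifitm6* log2 ratio in early B-like cells turned from 0.59 to -0.25 with classes from marker scores. The cause was not tested in either case. The log2 ratio of *Ifitm3* ranged from -0.91 to -0.05 in early erythroid-like cells, from -0.84 to -0.04 in monocyte-like cells and from -0.55 to -0.23 in immature neutrophil-like cells. Its sign did not change in these 3 classes in the alternatives run, but the values of -0.05 and -0.04 were close to no difference.

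Antiviral effectors lower in monocyte-like cells numbered 14, and 9 when log2 ratios were centred on the median of all genes, 7 with at least 300 UMIs and 7 with a limit of 2-fold. With classes from marker scores, basophil-like cells had 2612 CPM of *Ifitm1* in the WT and 2934 CPM in the Cko and 803 and 1187 CPM of *Ifitm2*, monocyte-like cells 3145 and 2405 CPM of *Ifitm3*, and immature neutrophil-like cells 1775 and 2800 CPM of *Ifitm6*. With each library clustered on its own, *Ifitm6* was at 1902 and 2673 CPM and Cko *Ifitm3* at 2545 CPM. With at least 14 clusters *Ifitm3* was at 2941 and 2465 CPM, with 20 principal components at 1668 and 1620 CPM, and with at least 26 clusters Cko *Ifitm3* was at 2560 CPM and Cko *Ifitm6* at 2884 CPM. Without cells holding 1% of neutrophil-marker UMIs, an alternative also added later, *Ifitm3* was at 3495 and 2861 CPM and Cko *Ifitm1* in basophil-like cells at 3448 CPM. The share of all cells with at least 2 members was 44.4% and 70.8% without thinning and 34.4% and 60.1% with thinning to 5000 UMIs. Of the single ratios under the alternatives, 277 stayed within the interval of the ratio reported, 55 moved outside it and 4 reversed.

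No paired analysis was possible because there was 1 library per genotype. Depth limits *Ifitm1* most, since outside basophil-like cells and the *Ctla2a*, *Gng11* and *Cd34* cluster it rests on few UMIs per class.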

Other observations

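Within hemoglobin-bearing erythroid-like cells *Ifitm3* was uneven. The cluster led by *Mgst3*, *Hemgn* and *Fn3k* had 182 CPM in the WT (845 UMIs) and 217 CPM in the Cko (369 UMIs), whereas the cluster led by *Gch1*, *Hist3h2ba* and *Hbb-bs* had 62.1 and 94.1 CPM and the cluster led by *Tmcc2*, *Xpo7* and *Rsad2* had 63.9 and 61.9 CPM. *Ifitm2* stayed between 4.71 and 27.6 CPM in these 3 clusters. Early erythroid-like cells had both genes (265 and 197 CPM in the WT), so that *Ifitm2* and *Ifitm3* had unlike levels in the hemoglobin-bearing clusters and similar ones in early erythroid-like cells of the WT. *Rsad2* had 426 CPM in WT and 207 CPM in Cko hemoglobin-bearing erythroid-like cells (ratio 0.48, 0.45 to 0.52).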
